A study of Homo sapiens with 12 samples.

Results

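Crizotinib was added to NUGC-4 cells that also received IN10018, and the 3 libraries of that combination were set against 3 libraries of cells given IN10018 alone, for every gene that passed a filter on low counts. These are 6 of the 12 libraries of the series. NUGC-4 is an established line labelled as diffuse gastric cancer, with a wild-type genotype. The combination group had 1 uM IN10018 together with 1 uM crizotinib for 24 h. The IN10018 group had 1 uM IN10018 for 24 h, so both groups carried IN10018 and crizotinib is what differed. The other 6 libraries, 3 with 1 uM crizotinib and 3 labelled control, all at 24 h, gave the same addition without IN10018. The model is limited to 1 cell line, 1 dose and 1 time. Total RNA was sequenced from libraries made with a strand-keeping kit, and 17096 of the 60623 genes in the count matrix were tested.

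IN10018 inhibits focal adhesion kinase (FAK, the product of PTK2), a cytoplasmic kinase that relays signals from integrins at the sites where cells grip the matrix. Crizotinib inhibits the receptor tyrosine kinases MET, ALK and ROS1. Receptor kinases and FAK both feed the RAS-ERK cascade, whose output includes immediate early genes such as FOS and EGR1. Adhesion signals also act on YAP1, a coactivator that works through TEAD factors and is restrained by the Hippo kinases. The title of the series links FAK, ROS1, YAP and thioredoxin in cancers that lack CDH1 (E-cadherin).

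The sequences of 5 genes named in the results are shown first, as RefSeq promoters on GRCh38.p14. Each runs from 250 bases before to 50 bases after the gene's start on the gene's own strand. FOSB and FOS fell most of all named genes, and EGR1 and PPP1R15A are further immediate early genes that fell. CCN2 is a YAP target near the limit of reading in both groups, with 0 reads in the combination and 4, 4 and 5 in the IN10018 libraries. Capitals mark the serum response CArG box in EGR1, the cyclic AMP response element TGACGTCA in PPP1R15A, and the TEAD motif CATTCC, read on the opposite strand as GGAATG, in CCN2. The motifs searched on both strands were TGACGTCA, the AP-1 site TGANTCA, the E2F sites TTTCCCGC and TTTGGCGC, CATTCC and the CArG box. None of them was found in the FOSB and FOS windows, which says only that those letters are not in them.
FOSB, chr19:45467746-45468045, plus strand: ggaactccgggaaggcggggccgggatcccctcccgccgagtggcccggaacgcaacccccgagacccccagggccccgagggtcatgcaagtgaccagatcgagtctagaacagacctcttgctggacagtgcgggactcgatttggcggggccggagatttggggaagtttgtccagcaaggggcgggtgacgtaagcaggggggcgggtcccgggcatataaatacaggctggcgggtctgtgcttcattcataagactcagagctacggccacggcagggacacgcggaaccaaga
FOS, chr14:75278578-75278877, plus strand: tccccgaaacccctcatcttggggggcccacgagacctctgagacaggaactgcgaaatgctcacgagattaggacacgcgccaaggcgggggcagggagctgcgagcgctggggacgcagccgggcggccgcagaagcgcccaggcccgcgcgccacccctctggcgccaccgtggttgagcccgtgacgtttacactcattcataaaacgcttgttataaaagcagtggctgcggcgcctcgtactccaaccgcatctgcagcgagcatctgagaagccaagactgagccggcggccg
EGR1, chr5:138465229-138465528, plus strand: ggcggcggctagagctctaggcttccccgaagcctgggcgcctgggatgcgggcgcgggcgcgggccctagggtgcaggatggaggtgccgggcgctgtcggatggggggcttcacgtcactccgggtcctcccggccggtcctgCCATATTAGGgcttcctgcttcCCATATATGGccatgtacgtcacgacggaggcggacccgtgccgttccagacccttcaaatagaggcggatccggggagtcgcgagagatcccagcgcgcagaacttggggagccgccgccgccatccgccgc
PPP1R15A, chr19:48872171-48872470, plus strand: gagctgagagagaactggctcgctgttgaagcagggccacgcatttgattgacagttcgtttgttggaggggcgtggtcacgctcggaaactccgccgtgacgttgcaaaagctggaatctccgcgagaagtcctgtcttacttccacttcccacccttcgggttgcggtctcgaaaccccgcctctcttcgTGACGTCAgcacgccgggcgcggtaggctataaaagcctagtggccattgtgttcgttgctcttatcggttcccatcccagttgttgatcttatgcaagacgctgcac
CCN2, chr6:131951323-131951622, minus strand: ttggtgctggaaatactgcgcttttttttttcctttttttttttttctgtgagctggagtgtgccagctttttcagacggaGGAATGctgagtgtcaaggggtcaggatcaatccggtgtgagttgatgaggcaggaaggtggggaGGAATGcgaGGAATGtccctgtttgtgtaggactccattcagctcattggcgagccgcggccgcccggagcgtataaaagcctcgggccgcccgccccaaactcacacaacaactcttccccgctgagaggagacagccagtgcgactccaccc

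The combination libraries held 15714156, 13691844 and 15420023 counted reads and the IN10018 libraries 16489986, 20059012 and 14908752. The combination libraries varied more among themselves, since edgeR's common biological coefficient of variation was 0.171 in the combination and 0.0454 in IN10018. On the first principal component of the 6 libraries, which held 78.7% of the variance, the combination libraries lay at 42.3, 80.3 and 24.3 and the IN10018 libraries at -48.7, -47.5 and -50.7. Combination library 2 stood apart on the side away from IN10018. Values without it are given for the total counts, for lists whose counts moved most and for a few genes only. Other single genes also shifted without it, and those values are not given. Nothing in the labels tells separate cultures from repeat libraries of a single culture, and the p-values therefore rest on a spread that may be technical. In bulk RNA, fewer cells of a kind and less RNA per cell cannot be told apart.

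The keratins KRT7, KRT8 and KRT18 were read at 190.3 to 2487 CPM (counts scaled here by library total alone) in every library. KRT19 and ESRP1, also epithelial, had 0 reads in all 12 libraries, and CLDN7 had 15. Of 7 gastric markers, 5 stayed under 1 CPM everywhere, with 0 reads of TFF2, 1 of MUC5AC and 4 of CLDN18. COL3A1, a fibroblast collagen, was read at 5091 to 7018 CPM, while COL1A2 had 12 reads in all. The summed level of the 8 epithelial markers was 2825 to 4250 CPM in the combination libraries and 1840 to 1991 CPM in the IN10018 libraries. Nearly all of that sum was KRT8, KRT18 and KRT7. Without combination library 2 the log2 fold change of KRT8 was 0.39 and did not pass the test. EPCAM averaged 18.3 CPM in the combination and 15.7 CPM in IN10018, and CLDN4 6.40 and 2.20 CPM. The summed level of the 7 fibroblast markers was 5428 to 6356 CPM and 5097 to 5954 CPM, nearly all of it COL3A1. COL3A1 averaged 5768 CPM in the combination and 5434 CPM in IN10018, and no other fibroblast marker exceeded 3.944 CPM in any library.

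From here on CPM carries the trimmed-mean (TMM) scaling unless said otherwise. A description field names adipogenic differentiation, and of 7 adipocyte markers ADIPOQ and LPL had 0 reads, LEP 2 and CIDEC 5, while FABP4 averaged 112 in the combination and 65.0 in IN10018, PLIN1 3.09 in the combination and 1.08 in IN10018 and PPARG 20.3 in the combination and 37.2 in IN10018 (CPM). FABP4 and PLIN1 rose and PPARG fell. Of 5 endothelial markers KDR had 0 reads, VWF 2 and TEK 11, while PECAM1 averaged 27.1 in the combination and 9.23 in IN10018 and CDH5 9.44 in the combination and 15.4 in IN10018 (CPM), so 1 rose and 1 fell. Among the immune markers CD3E had 0 reads, LYZ 4, PTPRC 21 and CD68 72, and CD14 averaged 31.4 in the combination and 18.7 in IN10018 (CPM) and rose. Of 6 intestinal markers CDX1 had 0 reads, MUC2 2, TFF3 3, VIL1 41 and LGALS4 48, and CDX2 averaged 2.93 in the combination and 1.28 in IN10018 (CPM) and rose. What these markers contribute to the results was not tested. CDH1 stood at 2.32, 2.43 and 3.80 CPM in the combination libraries and 3.34, 3.94 and 3.79 CPM in the IN10018 libraries. The CDH1 groups overlapped, and the log2 fold change of -0.37 ± 0.21 (standard error) did not pass the test.

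Crizotinib on top of IN10018 was followed by a broad change of the transcriptome. Immediate early genes, the RAS-ERK cascade, Hippo components and YAP targets, DNA replication and mitosis genes, DNA repair genes and mitochondrially encoded transcripts were mostly lower in the combination. Cytosolic ribosomal proteins, cholesterol synthesis genes, NRF2 targets and subunits of the nuclear-encoded respiratory chain were more often higher than lower. In all, 5079 genes, 29.7% of those tested, were higher in the combination and 4706, or 27.5%, were lower, by edgeR's quasi-likelihood test at a Benjamini-Hochberg adjusted p under 0.05, which is what "passed the test", "rose" and "fell" mean throughout. Of these, 2044 rose and 1160 fell at least 2-fold. Without combination library 2 the count of such rises was 1070, and in a fit corrected for GC content and length, described next, it was 837, with 610 falls. At any size, 3600 of 17509 tested genes rose and 4138 fell without combination library 2. The median log2 fold change of all tested genes was 0.04, and scaling by library totals alone moved it to 0.15. Protein-coding genes numbered 12478, of which 3813 rose and 4165 fell. Of 2618 long noncoding genes, 724 rose and 301 fell, and of 1322 pseudogenes 366 rose and 126 fell.

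The direction of change followed the base composition of the transcript. Among the fifth of genes lowest in GC content 5.2% rose and 57.4% fell, and among the fifth highest in GC 68.3% rose and 2.3% fell. The fifth highest in GC took 17.8%, 22.1% and 16.5% of nuclear reads in the combination libraries and 11.98%, 11.61% and 12.06% in the IN10018 libraries, with no overlap. Crizotinib alone gave 14.0%, 18.7% and 14.8%, and the control libraries 11.7%, 12.1% and 11.6%. Genes that rose had a median exon length of 3355 bases, against 6001 bases for genes that fell. A second fit that removed each library's trend with GC content and length (called the offset fit below) made 4157 calls higher and 3962 lower. It called 2865 of the 5079 risers and 2890 of the 4706 fallers the same way, and 148 and 138 of them the opposite way. What GC content and length contribute to the results below was not tested otherwise, and offset values are given beside most of them. List counts from the offset fit belong beside its own totals of 4157 and 3962 among 17096 genes.

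**Figure D1:**
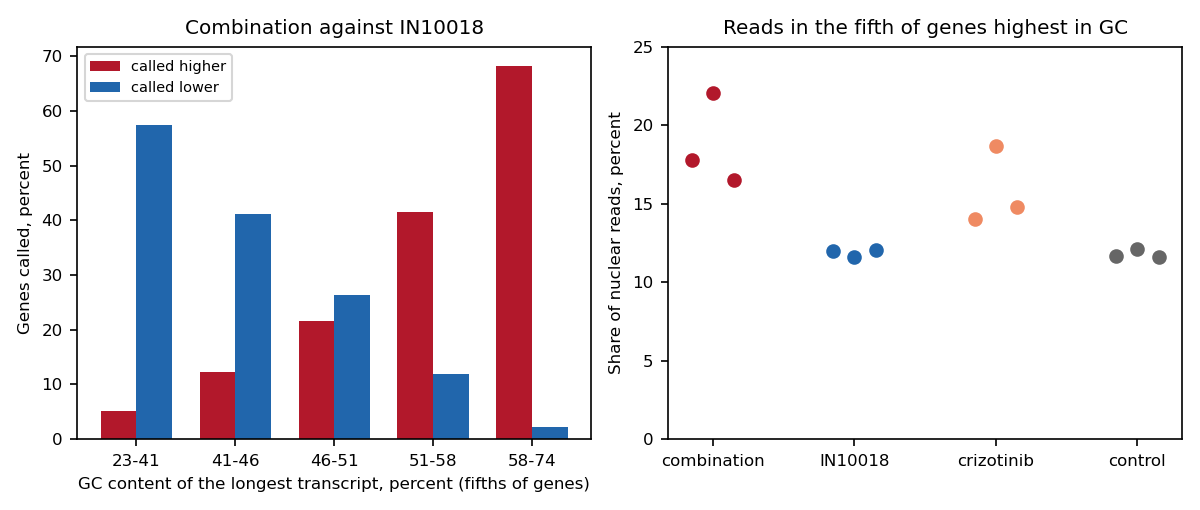
Left, percent of genes called higher (red) and lower (blue) in the combination against IN10018, in 5 equal bins of GC content of the longest transcript. Right, percent of each library's nuclear reads that fell in the fifth of genes highest in GC, 1 point per library; the combination libraries lie between 16.5% and 22.1%, all above the IN10018 libraries.

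The immediate early genes, the first transcripts to answer growth factor and stress signals, held FOSB and FOS, the genes with the largest falls of those named. Of 29 listed genes 27 were tested, 18 fell, 2 rose and 7 did not pass, with a median log2 fold change of -0.84. The offset fit gave 21 lower and 1 higher with a median of -0.97, and without combination library 2 the count stayed at 18 lower and 2 higher. Crizotinib against control, without IN10018, gave 22 lower and 0 higher with a median of -1.56, a larger fall for the list.

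FOSB, a subunit of the AP-1 transcription factor, was at 2.80, 2.92 and 2.39 CPM in the combination libraries and 210.4, 186 and 191 CPM in the IN10018 libraries. Every combination library lay far below every IN10018 library, and the log2 fold change was -6.18 ± 0.22 (edgeR quasi-likelihood adjusted p = 1.19e-09). FOS, the founding member of the family, was at 9.82, 11.1 and 18.001 CPM in the combination and 431, 375 and 414 CPM in IN10018. Its log2 fold change was -4.97 ± 0.22, and no setting tried ended either call. KLF4, a zinc finger factor of epithelial differentiation, had 1, 0 and 2 reads in the combination libraries and 36, 30 and 28 in the IN10018 libraries, too few in the combination for a firm fold.

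PPP1R15A (GADD34), which restores translation after stress, was at 13.7, 16.2 and 12.7 CPM in the combination and 75.1, 68.4 and 65.4 CPM in IN10018, a log2 fold change of -2.29 ± 0.19 that reached -2.86 in the offset fit. The groups were well apart. EGR1, a zinc finger factor and classical ERK target, was at 12.3, 10.9 and 12.6 CPM in the combination and 32.6, 30.7 and 35.7 CPM in IN10018 (log2 fold change -1.46 ± 0.16, offset -1.81). ATF3, a stress-induced repressor, was at 0.714, 0.903 and 0.367 CPM in the combination and 3.3998, 2.58 and 2.69 CPM in IN10018 (log2 fold change -2.13 ± 0.29, offset -1.99). All 3 genes were lower in every combination library than in any IN10018 library.

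Further members fell by less. JUN, the partner of FOS in AP-1, averaged 8.74 ± 0.318 CPM in the combination and 22.2 ± 4.29 CPM in IN10018 (SD, n = 3 each), a log2 fold change of -1.34 (offset -1.73). The log2 fold changes of the growth regulator MYC (-0.88, offset -1.16), the ERK phosphatase DUSP1 (-0.94, offset -1.39), the mRNA decay factor ZFP36 (-0.96, offset -1.56) and the pseudokinase TRIB1 (-0.84, offset -0.97) also passed. IER2 went the other way, at 34.9, 50.3 and 26.0 CPM in the combination and 11.7, 14.0 and 15.6 CPM in IN10018, a log2 fold change of 1.42 that was 0.67 in the offset fit. IER3 also rose (0.65), but its offset value was -0.10. JUNB (0.38), SRF (-0.09), FOSL1 (0.15), KLF2 (0.16), KLF6 (0.10), BTG2 (0.11) and IER5 (0.14) did not pass.

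**Figure D2:**
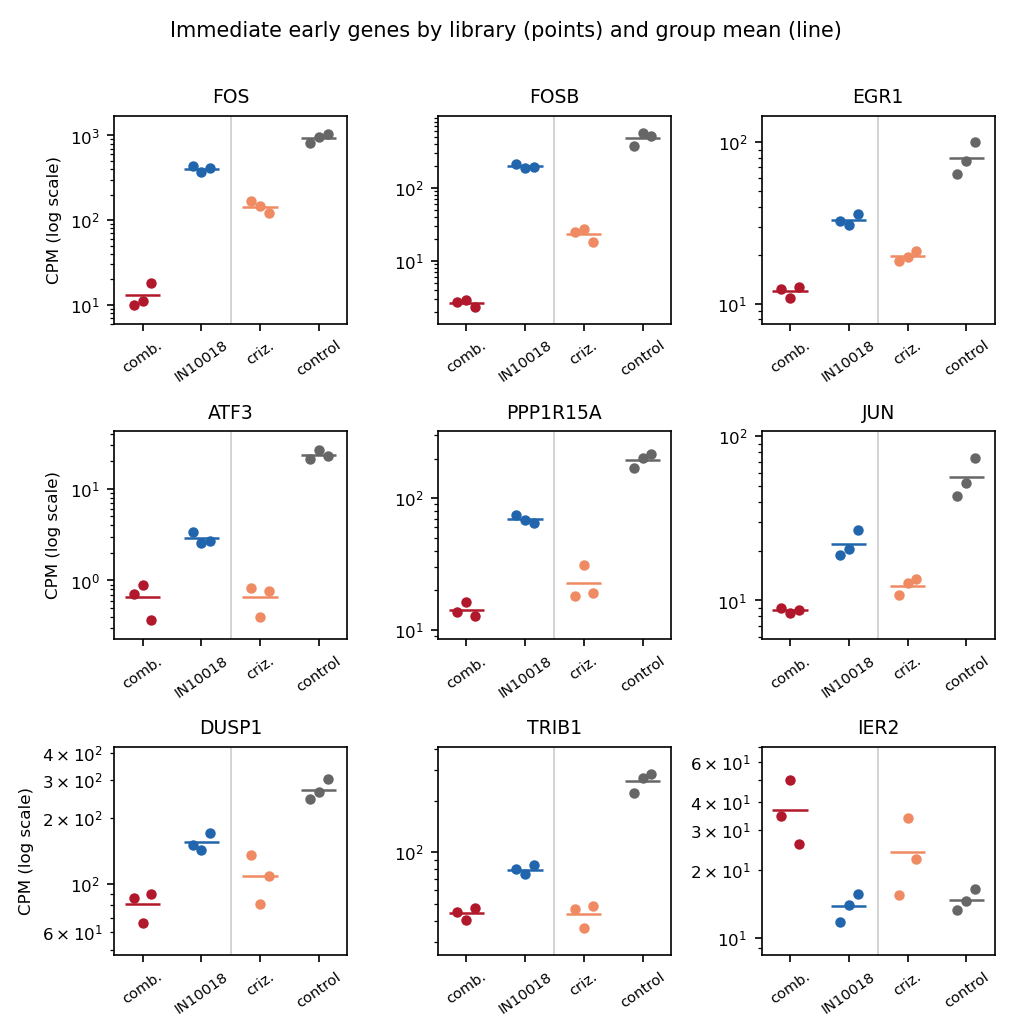
CPM on a log axis for 9 immediate early genes, 1 point per library and a line at each group mean, in the order combination, IN10018, crizotinib and control. FOS and FOSB are lower in the combination than in the other groups, and IER2 is the panel in which the combination lies above IN10018.

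RefSeq promoters were matched for 19 of the 27 tested members, and few held the letters searched. Here and below only 1 promoter per gene was searched, though some genes have more, such as ATF3 with 2 and CITED2 with 3. Among 12 RefSeq promoters of immediate early genes that fell, 2 held TGACGTCA on either strand (PPP1R15A 58 bases before the start and DUSP1 125 bases before) and 1 held CArG boxes, EGR1, 105 and 83 bases before the start. Among 6 promoters of members not called, 0 held TGACGTCA and 1 held CArG boxes, SRF, 30 and 10 bases before the start. Of 35116 promoters of the same length, 1.85% held TGACGTCA and 1.29% a CArG box. These are matches of letters, not sites shown to be bound.

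The question whether crizotinib did the same with and without IN10018 was taken to the other 6 libraries, which are not shared with the first comparison. Crizotinib against control called 3420 genes higher (20.0%) and 3014 lower (17.6%). Of the genes higher in the combination than in IN10018, 2732 were also higher with crizotinib than in control, 53.8% of the first list and 79.9% of the second. Of the genes lower, 2778 were lower in both, 59.0% and 92.2%. Across the 17096 genes the log2 fold changes had a Pearson r of 0.788 and a Spearman rho of 0.829, a description over genes, which are not independent replicates and which share the GC trend.

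Only 9 genes passed in both comparisons in opposite directions. H2AX, CEBPD, FADD and the noncoding AC012306.2 were higher with crizotinib on top of IN10018 and lower with crizotinib alone. CKMT2 and the noncoding OCIAD1-AS1, KDM4A-AS1, TMEM161B-AS1 and JPX went the reverse way. FADD, an adaptor of death receptors, averaged 5.76 CPM in the combination and 3.14 in IN10018, against 3.23 with crizotinib and 7.21 in control. These genes were chosen after their values were seen, and of them H2AX alone passed the direct test of the difference.

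That test, of the crizotinib change with IN10018 minus the change without it, passed for 10 genes in the higher direction (0.0585% of those tested) and 2 in the lower (0.0117%). At an unadjusted p under 0.05 there were 568 and 799. Of the 12 genes, 6 stood in the immediate early list, against 27 tested members in all. Since the list was chosen with earlier results of these data known, this is a description only. Over the 27 tested members of the list the median difference was 0.60, toward a smaller fall with IN10018 present. The count of genes passing this test was unsteady, since without crizotinib library 2, whose GC share was the highest of its group, it was 392 higher and 413 lower.

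FOS fell more steeply with IN10018 present. It averaged 12.98 ± 4.40 CPM in the combination and 407 ± 28.8 CPM in IN10018, and 145 ± 24.1 CPM with crizotinib and 945 ± 116 CPM in control (SD, n = 3 each). The difference between the log2 changes was -2.26 ± 0.27. FOSB averaged 2.70 ± 0.278 CPM in the combination and 196 ± 13.03 CPM in IN10018, and 23.3 ± 4.72 CPM with crizotinib and 483 ± 102 CPM in control, a difference of -1.80 ± 0.26. The FOSB difference lost its call in 6 of 23 settings, among them limma-voom, and that of FOS in none.

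ATF3, TRIB1, NR4A2 and KLF6 differed in the higher direction, each having fallen under crizotinib alone by more than in the combination against IN10018, where KLF6 did not pass. ATF3 averaged 0.662 CPM in the combination and 2.89 CPM in IN10018, and 0.664 CPM with crizotinib and 23.4 CPM in control. Its libraries stood at 0.714, 0.903 and 0.367 CPM in the combination and 0.830, 0.400 and 0.764 CPM with crizotinib, so few reads set both means. The combination and crizotinib means of ATF3 were alike, while the IN10018 mean was already far under the control mean. TRIB1 showed the same layout, with 44.2 and 79.4 CPM in the combination and IN10018 and 43.9 and 260.0 CPM in crizotinib and control. NR4A2, an orphan nuclear receptor, averaged 24.5 and 38.7 CPM, and 23.0 and 102 CPM, in that order of groups. KLF6, a zinc finger factor, averaged 113 and 105 CPM, and 97.9 and 222 CPM. H2AX, the histone variant phosphorylated at DNA breaks, rose by 0.77 on the log2 scale with IN10018 present, but its offset value was -0.35.

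**Figure D3:**
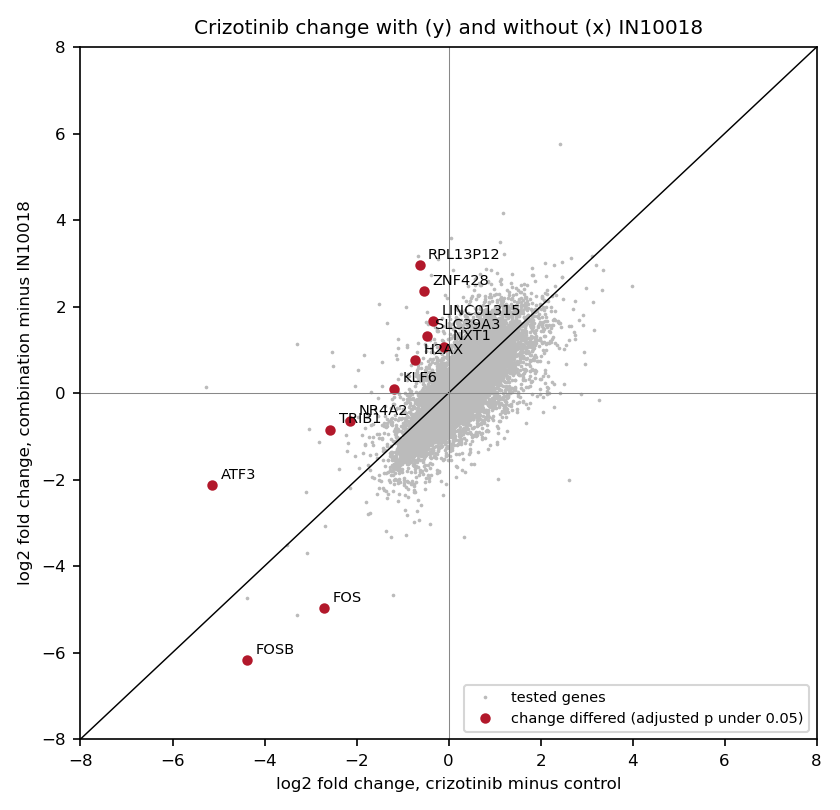
Log2 fold change of crizotinib against control (x) and of the combination against IN10018 (y) for 17096 genes in grey, with the 12 genes whose changes differed in red and a line of equal change. FOS and FOSB lie below the line, and the other 10 red genes above it.

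The kinases that crizotinib binds differed in what could be read. MET, the receptor for hepatocyte growth factor, was at 258, 205 and 314 CPM in the combination and 643, 625 and 677 CPM in IN10018, with every combination library lower. Its log2 fold change was -1.32 ± 0.16, and -0.88 in the offset fit. ALK was at 2.02, 2.22 and 1.78 CPM in the combination and 3.89, 3.49 and 3.58 CPM in IN10018 (log2 fold change -0.86 ± 0.21, offset -1.20). ROS1 had 0 reads in all 12 libraries, which allows at most 0.0312 CPM over the 6 libraries compared. This limit is 3 counts over the plain sum of their totals, without TMM scaling, and covers counting error only.

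Among 23 tested receptor kinases of 34 listed, 4 rose and 7 fell, and the offset fit gave 3 and 9. Without combination library 2 the counts were 1 and 5. EGFR was at 263, 214 and 311 CPM in the combination and 774, 739 and 795 CPM in IN10018, a log2 fold change of -1.55 ± 0.22 (offset -1.29). EPHA2 (-0.51), AXL (-0.35) and IGF1R (-0.34) fell by less. Of their ligands, 6 of 15 tested rose and 6 fell (offset 4 and 5). The growth factor FGF2 averaged 149 ± 41.4 CPM in the combination and 405 ± 9.01 CPM in IN10018, and VEGFA, which drives vessel growth, averaged 226 ± 17.8 CPM and 148 ± 6.63 CPM (SD, n = 3 each). FGF2 fell by 1.44 (offset -0.82) and VEGFA rose by 0.62 (offset 0.53) on the log2 scale.

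Downstream, 16 of 23 members of the MET adaptor and RAS-ERK list fell and 3 rose, and the offset fit gave 15 and 1. The median log2 fold change of -0.73 was -0.29 in the offset fit. CBL, a ubiquitin ligase of active receptors, averaged 38.0 CPM in the combination and 91.7 CPM in IN10018 (log2 fold change -1.27, offset -0.95). The RAS exchange factor SOS1 (-1.15, offset -0.50) also fell. HRAS (1.23, offset 0.12) and the MEK kinase MAP2K2 (1.19, offset 0.61) rose. BRAF fell (-0.67), but its offset value was -0.04. Of 25 genes that report ERK output, 11 fell and 5 rose, and without combination library 2 the counts were 10 and 3, and in the offset fit 12 and 3. SPRED2, a feedback inhibitor of the cascade, was at 21.4, 18.5 and 26.3 CPM in the combination and 60.4, 57.0 and 54.8 CPM in IN10018 (log2 fold change -1.38, offset -1.28). SPRY4 (-0.69) and PHLDA1 (-0.74) fell, whereas the ERK phosphatase DUSP6 (0.11) and the cyclin CCND1 (0.12) did not pass and DUSP4 rose (0.35).

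PTK2, which encodes the target of IN10018, was at 190.1, 145 and 189 CPM in the combination and 338, 332 and 347 CPM in IN10018. All combination libraries lay lower, with a log2 fold change of -0.96 ± 0.15 and an offset value of -0.56. In the list of FAK, SRC kinases and adaptors 9 of 18 fell and 4 rose, and the offset fit gave 10 lower and 1 higher. Without combination library 2 the counts were 8 lower and 1 higher. The SRC family kinases YES1 (-0.81) and LYN (-0.58) fell and SRC rose (0.61), but the SRC call was lost in 2 settings, including the offset fit (0.19).

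Of 11 integrin subunits tested, 7 fell and 3 rose, with 7 and 1 without combination library 2 and 7 and 0 in the offset fit. The collagen receptor subunit ITGA1 was at 550.5, 411 and 674 CPM in the combination and 1409.7, 1481 and 1444 CPM in IN10018 (log2 fold change -1.41, offset -0.74). ITGB1, the beta subunit that most of these pair with, averaged 671 ± 172 CPM in the combination and 1326 ± 20.2 CPM in IN10018 (SD, n = 3 each), a log2 fold change of -0.98 with an offset value of -0.45. ITGA3 rose (0.60, offset 0.10). Of 29 focal adhesion and actomyosin genes 13 fell and 6 rose, and the offset fit gave 9 and 4. The kindlin FERMT2 fell (-1.03, offset -0.34), and the smooth muscle protein TAGLN rose (1.38, offset 0.95).

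The Hippo list had 13 of 19 tested members lower and 2 higher, and 12 and 1 in the offset fit. YAP1 was at 42.3, 32.5 and 48.8 CPM in the combination and 73.6, 72.9 and 72.6 CPM in IN10018, with no overlap, a log2 fold change of -0.82 ± 0.16 and an offset value of -0.45. Its DNA-binding partner TEAD1 (-1.10, offset -0.55), the protocadherin FAT1 (-1.68, offset -1.37) and the kinase LATS1 (-1.12, offset -0.53) fell as well. STK3, a Hippo kinase, fell by 0.65 but stood at 0.06 in the offset fit. Since both activators and inhibitors of YAP1 fell, the list's count says nothing of the pathway's activity.

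Among 23 tested YAP and TEAD targets, 15 fell and 2 rose, 16 and 2 in the offset fit. CCN1, a secreted matrix protein, was at 53.4, 42.0 and 49.1 CPM in the combination and 101.5, 86.3 and 103 CPM in IN10018 (log2 fold change -1.01 ± 0.13, offset -1.16). The membrane repair protein MYOF (-1.20, offset -0.94) and the tetraspan EMP1 (-1.42, offset -0.96) fell too. CCN2 had 0 reads in each combination library and 4, 4 and 5 in the IN10018 libraries. With 3 counts over the combination group in place of 0, it was 3.77-fold lower there. That figure takes the IN10018 reads as exact and leaves out the spread between libraries, so it is no firm bound. The CCN2 promoter shown above holds the TEAD motif 3 times, 169, 104 and 95 bases before the start. Promoters were matched for 16 targets. Of 11 that belonged to targets that fell 2 held the motif, against 3 of 4 not called, and of all promoters 14.0% did.

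**Figure D4:**
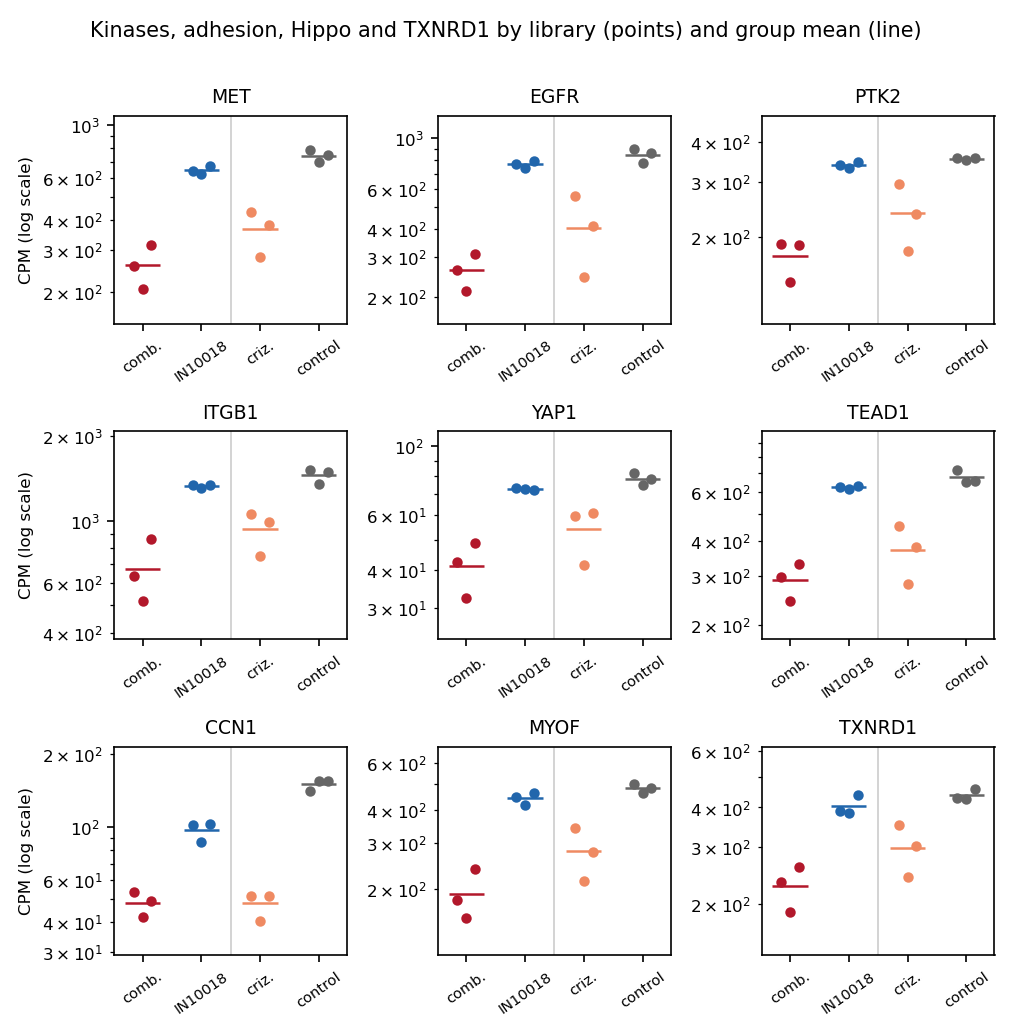
CPM on a log axis for 9 genes of receptor and adhesion signalling, the Hippo pathway and thioredoxin reductase, 1 point per library and a line at each group mean. In every panel the 3 combination libraries lie below the 3 IN10018 libraries, and combination library 2 is the lowest of its group.

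The series title also names thioredoxin. TXNRD1, the cytosolic reductase that keeps thioredoxin reduced, was at 234, 188 and 259.9 CPM in the combination and 389, 384 and 437 CPM in IN10018 (log2 fold change -0.83 ± 0.14, offset -0.51). Thioredoxin itself, TXN, was at 94.6, 80.7 and 94.8 CPM in the combination and 107, 112 and 111 CPM in IN10018. Its log2 fold change of -0.29 ± 0.11 passed narrowly (edgeR quasi-likelihood adjusted p = 0.0421) and lost its call in 8 of 25 settings, with values from -0.36 to -0.18. TXNIP, the inhibitor of thioredoxin, at 48.2, 45.7 and 55.8 CPM in the combination and 40.4, 41.3 and 45.5 CPM in IN10018, did not pass (0.24 ± 0.11) but did in the offset fit (0.49). Of 22 tested genes of the system 8 rose and 6 fell (offset 9 and 5). The mitochondrial peroxidase PRDX3 fell (-0.89, offset -0.62), while PRDX5 (1.89, offset 0.84) and the methionine sulfoxide reductase MSRB2 (1.61, offset 1.47) rose.

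NRF2 targets, the antioxidant enzymes, had 11 of 21 higher and 5 lower (offset 10 and 4, and 11 and 2 without combination library 2). AKR1C2 averaged 204 ± 3.56 CPM in the combination and 110.1 ± 5.16 CPM in IN10018 (SD, n = 3 each), a log2 fold change of 0.89. AKR1C1 (0.71) is a near copy of it, so reads may have been split between them. NQO1 (0.67), TKT (0.84) and HMOX1 (1.39) rose, and the cystine carrier SLC7A11 (-1.08) and NFE2L2 (-0.80), which encodes NRF2, fell.

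Most cell cycle genes tested were lower. Of 44 DNA replication and S phase genes 29 fell and 2 rose, and the offset fit gave 31 and 2. RRM2, the regulated subunit of ribonucleotide reductase, was at 116, 85.2 and 127 CPM in the combination and 320.3, 291 and 327 CPM in IN10018 (log2 fold change -1.52 ± 0.18, offset -1.29). MCM10, a replication initiation factor, was at 13.5, 13.4 and 11.4 CPM and 27.8, 26.9 and 29.4 CPM in the same order (-1.13, offset -0.76). The groups of both genes were apart. MCM5 (-0.07) and FEN1 (0.10) did not pass. An E2F motif, TTTCCCGC or TTTGGCGC on either strand, was in 12 of 24 promoters of S phase genes that fell and 5 of 12 of those not called. Among all promoters 1.63% held the first form and 0.65% the second.

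Of 57 genes of G2 and mitosis 43 fell and 5 rose, 32 and 6 in the offset fit. ASPM, a spindle pole protein, was at 143, 96.6 and 163 CPM in the combination and 466, 475 and 426 CPM in IN10018 (log2 fold change -1.76 ± 0.22, offset -1.07). The cytokinesis factor ECT2 (-1.52, offset -0.94) and the cyclin CCNA2 (-1.19, offset -0.92) fell. CENPF fell by 0.64, with an offset value of -0.05. CDC25B (0.75, offset 0.24) and PTTG1 (0.68, offset 0.51) rose.

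Homologous recombination and Fanconi genes had 21 of 26 lower and 1 higher (offset 19 and 0), with a median log2 fold change of -0.81. FANCB, a subunit of the Fanconi core complex, was at 9.52, 7.64 and 11.6 CPM in the combination and 29.5, 30.6 and 30.3 CPM in IN10018 (-1.65, offset -1.11). BRIP1 (-1.51, offset -0.86) and BRCA2 (-1.502, offset -0.77) fell. In the G1 list 9 of 19 fell and 3 rose (offset 12 and 1). The kinases CDK6 (-1.46, offset -0.82) and CDK2 (-1.15, offset -1.23) fell together with RB1 (-1.72, offset -1.10), the restraint on E2F, and the inhibitor CDKN1C rose (1.54, offset 0.64).

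Mitochondrially encoded transcripts took 6.99%, 4.28% and 6.62% of reads in the combination libraries and 12.3%, 12.7% and 11.5% in the IN10018 libraries. The crizotinib libraries gave 13.3%, 5.21% and 9.46%, and the control libraries 11.2%, 11.0% and 11.9%. None of the 15 rose and 14 fell, with a median log2 fold change of -1.30, and 12 fell without combination library 2. The offset fit also had 14 lower, with a median of -1.49. MT-ND2, a subunit of complex I, was at 1630.1, 699.7 and 1689 CPM in the combination and 5078, 5158 and 5217 CPM in IN10018 (log2 fold change -1.94 ± 0.42). MT-ATP8, at 56.8, 26.5 and 73.7 CPM and 511, 496 and 564 CPM in the same order, overlaps MT-ATP6, so its share of reads is uncertain. MT-ND5 (-0.16) did not pass. Of 41 nuclear-encoded respiratory chain genes, 19 rose and 7 fell (offset 18 and 7). COX4I1, a subunit of cytochrome c oxidase, averaged 438 ± 124 CPM in the combination and 178 ± 7.43 CPM in IN10018 (SD, n = 3 each), a log2 fold change of 1.30 (offset 1.43).

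Cytosolic ribosomal protein genes rose in 41 of 50 and fell in 2, and the offset fit gave 35 and 3. RPL13 was at 748, 1567 and 851 CPM in the combination and 234, 230.3 and 230.3 CPM in IN10018 (2.19 ± 0.30, offset 1.90), with library 2 the highest and a log2 fold change of 1.75 without it. RPL18 (1.54) and RPS15 (1.34) rose, and RPL30 (-0.75) and RPS27 (-0.60) fell, the RPS27 call being lost in 5 of 25 settings. Such genes have many near-identical pseudogenes, and how reads were shared between them is not given in the sources used here.

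Cholesterol synthesis and uptake had 13 of 24 higher and 3 lower, and 16 and 0 in the offset fit. MVD, an enzyme of the mevalonate route, was at 40.0, 62.4 and 36.9 CPM in the combination and 10.1, 12.7 and 12.7 CPM in IN10018 (1.97 ± 0.29, offset 1.22). EBP (1.91, offset 1.56) and SREBF1 (0.99, offset 0.41), a regulator of lipid synthesis, rose. The epoxidase SQLE (0.04) did not pass.

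**Figure D5:**
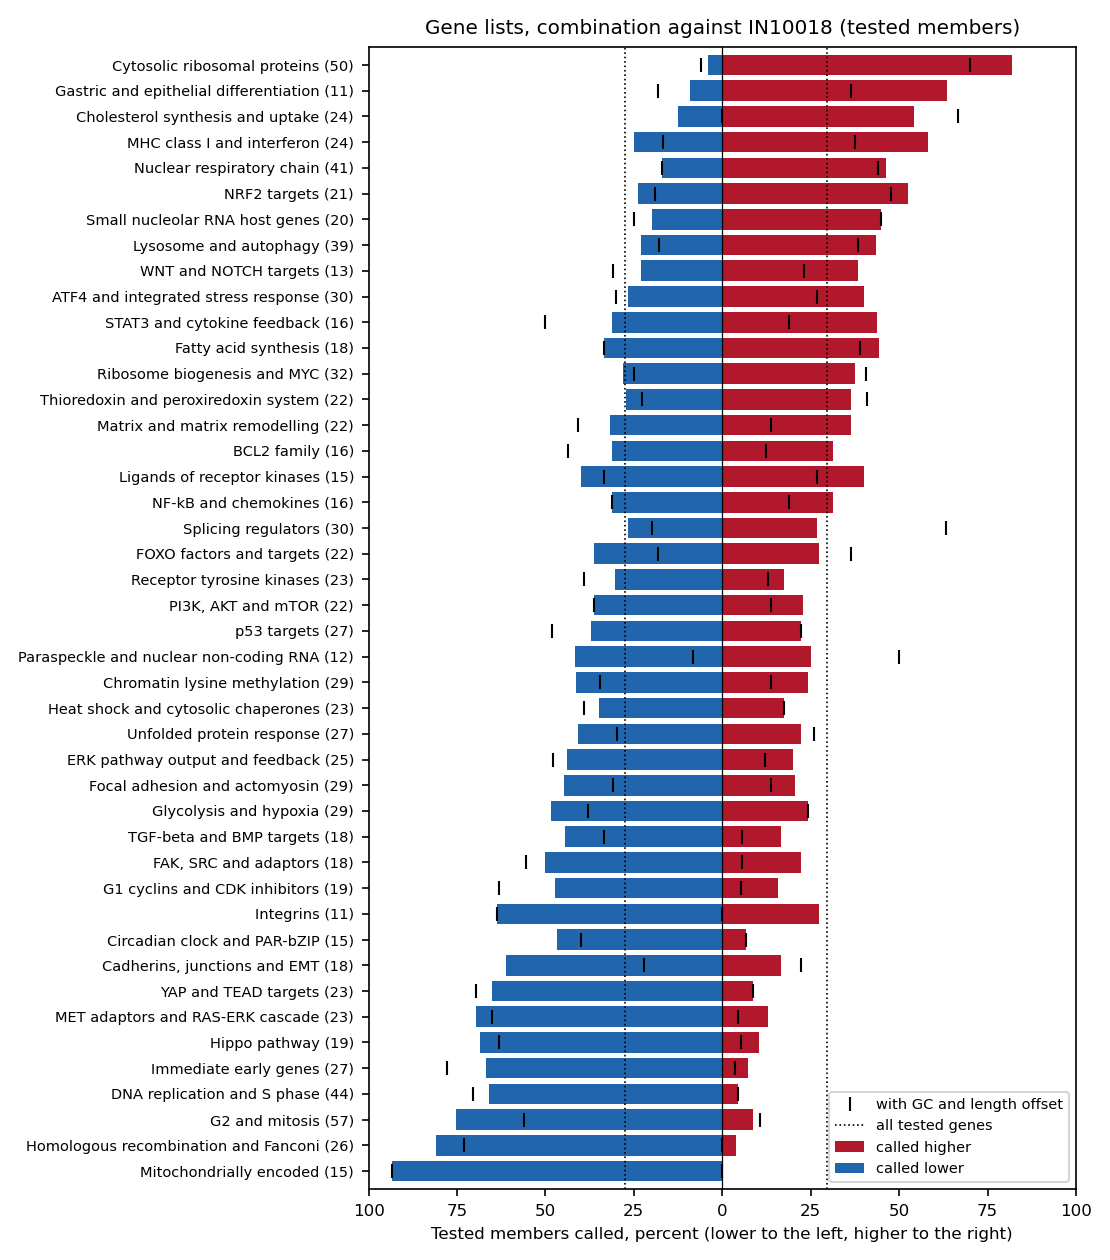
Percent of tested members called higher (red, right) and lower (blue, left) in the combination against IN10018 for each gene list, with tested members in parentheses. Ticks give the offset fit, in which 4157 of all 17096 tested genes were higher and 3962 lower. Dotted lines give all tested genes in the main fit only, at 29.7% and 27.5%. Ribosomal proteins stand at the top and mitochondrially encoded genes at the bottom.

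In the integrated stress response list 12 of 30 rose and 8 fell, and with the offset the count turned to 8 and 9. NUPR1, a stress-induced chromatin protein, was at 5.24, 5.56 and 3.55 CPM in the combination and 0.495, 0.859 and 0.827 CPM in IN10018 (2.69 ± 0.31, offset 2.74). DDIT4 (1.11, offset 0.46), a brake on mTOR, rose. In the unfolded protein response list 11 of 27 fell and 6 rose, 10 and 2 without combination library 2, and 8 and 7 in the offset fit. SDF2L1 rose (1.87, offset 0.65) and the sensor kinase EIF2AK3 fell (-1.12, offset -0.82).

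Of 16 BCL2 family genes 5 rose and 5 fell (31.2% each), near the 29.7% and 27.5% of all tested genes. The offset fit gave 2 higher and 7 lower. The pro-death members BBC3 (1.86, offset 0.71) and BAX (1.498, offset 0.84) rose and the protector MCL1 fell (-0.81, offset -0.58). BAD rose by 1.15, with an offset value of -0.01. BCL2L11 fell (-1.10, offset -0.82). MHC class I and interferon genes had 14 of 24 higher and 6 lower (offset 9 and 4), and class I genes share sequence with their relatives. BCL6, a transcriptional repressor, was at 314, 364 and 255 CPM in the combination and 123, 125 and 110.2 CPM in IN10018 (1.38 ± 0.13, offset 1.45). MUC6, a gastric gland mucin, was at 24.6, 29.05 and 12.4 CPM and 5.996, 5.46 and 4.69 CPM in the same order (2.03 ± 0.33, offset 1.48), and the nuclear paraspeckle RNA NEAT1 rose as well (1.33, offset 1.79).

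Splicing regulators had 8 of 30 higher and 8 lower (26.7% each), near the 29.7% and 27.5% of all tested genes. The offset fit called 19 higher and 6 lower, and without combination library 2 the counts were 3 higher and 9 lower. That list's balance depends on the setting. SRSF7 (-1.11, offset -0.70) fell and LUC7L3 (0.78, offset 1.49) rose in both. Cadherin, junction and EMT genes had 11 of 18 lower and 3 higher, against 4 and 4 in the offset fit, and the junction protein CLDN3 rose by 1.27 but stood at -0.05 with the offset.

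Of 11 tested genes of gastric and epithelial differentiation 7 rose and 1 fell (offset 4 and 2), and 28 listed members were not tested. Lysosome and autophagy genes had 17 of 39 higher and 9 lower (offset 15 and 7), among them the protease CTSD, at 271, 485 and 207 CPM in the combination and 75.4, 67.0 and 88.0 CPM in IN10018 (2.06 ± 0.31, offset 1.17). Small nucleolar RNA host genes had 9 of 20 higher and 4 lower (offset 9 and 5), and fatty acid synthesis genes 8 of 18 higher and 6 lower (offset 7 and 6). Ribosome biogenesis genes had 12 of 32 higher (37.5%) and 9 lower (28.1%), and 13 and 8 in the offset fit. Over all tested genes the shares were 29.7% and 27.5%.

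Other lists had calls in both directions, and many stood near the shares of all tested genes, 29.7% higher and 27.5% lower. In 29 matrix and remodelling genes, of which 22 were tested, 8 rose and 7 fell, against 3 and 9 in the offset fit and 4 and 8 without combination library 2. TIMP1, an inhibitor of matrix proteases, was at 524, 720.2 and 403 CPM in the combination and 184, 185 and 200.1 CPM in IN10018 (1.53 ± 0.20, offset 0.80). STAT3 feedback genes had 7 of 16 higher and 5 lower (offset 3 and 8), and NF-kB genes 5 and 5 of 16 (offset 3 and 5, and 4 and 2 without combination library 2). For p53 targets 6 of 27 rose and 10 fell (offset 6 and 13). PI3K and mTOR genes had 5 of 22 higher and 8 lower (offset 3 and 8), and 2 and 7 without combination library 2. FOXO genes had 6 of 22 higher and 8 lower (offset 8 and 4), and WNT and NOTCH targets 5 of 13 higher and 3 lower (offset 3 and 4, and 3 and 2 without combination library 2).

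Glycolysis and hypoxia genes had 7 of 29 higher and 14 lower (offset 7 and 11), TGF-beta targets 3 of 18 higher and 8 lower (offset 1 and 6), and heat shock genes 4 of 23 higher and 8 lower (offset 4 and 9). Circadian genes had 1 of 15 higher and 7 lower (offset 1 and 6). Chromatin methylation genes had 7 of 29 higher and 12 lower (offset 4 and 10), and 3 and 10 without combination library 2. Paraspeckle and nuclear RNAs had 3 of 12 higher and 5 lower, which the offset fit turned to 6 and 1. Leaving out combination library 2 moved the larger count of a list by under 1.5 times, except where its counts without that library are given.

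By size alone, the 10 largest rises among named genes were IGFL1P1, CCDC85B, RPL13P12, PCSK1N, CFD, SCX, RPSAP19, SNHG19, ANTKMT and ALKBH7, with log2 fold changes from 3.13 to 2.53. In the offset fit they ranged from 1.07 to 2.34, all still higher. CFD, complement factor D, was at 18.3, 42.1 and 21.9 CPM in the combination and 4.20, 4.24 and 3.79 CPM in IN10018, and CCDC85B at 10.6, 33.9 and 16.9 CPM and 2.72, 2.12 and 2.34 CPM. In both genes combination library 2 was the highest by a wide margin, and without it the log2 fold changes were 2.256 for CFD and 2.485 for CCDC85B. IGFL1P1, RPL13P12 and RPSAP19 are pseudogenes whose reads may belong to their parent genes. The 10 largest falls were FOSB, FOS, MT-ATP8, MT-TL1, RPSAP47, PLCXD2, PPP1R15A, MFAP3, MT-TQ and TBX20, from -6.18 to -2.18. RPSAP47 is likewise a pseudogene, and its reads may belong to its parent gene. PLCXD2, a phospholipase-like gene, was at 1.37, 1.81 and 2.08 CPM in the combination and 8.96, 8.59 and 8.96 CPM in IN10018.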

How the data were processed

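The authors deposited raw read counts per gene for 12 libraries. Per the labels' protocols, RNA came from a TRIzol extraction and a directional NEBNext kit was used for the libraries, and per the submitters' processing notes Trimmomatic, FastQC, HISAT2, featureCounts and DESeq2 were named, with builds hg38 and GRCh38. Versions and the strand setting of counting are not given in the sources used here, so an antisense gene cannot be told from its partner with certainty.

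Counts were tested with edgeR 4.0.16 in R 4.3.3, with limma 3.58.1 and DESeq2 1.42.0 as alternatives. All 12 libraries entered 1 quasi-likelihood fit with group means, TMM scaling and filterByExpr by group, called at a Benjamini-Hochberg adjusted p under 0.05. Standard errors are the log2 fold change divided by the root of F. Coordinates, GC content and length come from the GENCODE 29 annotation, which held 96.52% of the genes, and 98.65% of tested genes had a GC content and length. The offset fit adds a per-library spline in both. No 2 libraries were identical. Same-numbered combination and IN10018 libraries did not deviate together, and the other groups were not examined for this. Library 2 had the highest GC share of its group in both the crizotinib (18.71%) and the combination (22.06%) groups.

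Genes named are the 10 largest changes each way with a mean log2 CPM of at least 1 and groups apart, up to 4 members of lowest p in each of 44 lists with at least 5 tested, 9 fixed genes of the pathways in the title and the largest differences in response; further list members were chosen after their values were seen. The members and lists were chosen with earlier results of these data known. Tests were checked on simulated counts that gave every group the same spread per gene and held no GC trend. That check therefore does not cover the unequal spread of the groups or the GC trend seen here. Results for some genes are not reported here.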

Additional observations from a re-analysis of the deposited data

Results flagged for a closer look

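The crizotinib change with IN10018 present minus the change without it passed edgeR's quasi-likelihood test with Benjamini-Hochberg adjustment in 12 genes, and each is given as a log2 difference. FOS (-2.26) and FOSB (-1.80) were lower. Higher were NXT1 (1.17), KLF6 (1.28), NR4A2 (1.49), H2AX (1.497), TRIB1 (1.72), SLC39A3 (1.80), LINC01315 (1.99), ZNF428 (2.89), ATF3 (3.01) and RPL13P12 (3.59). Over 23 other settings FOS and TRIB1 kept their calls in each, NR4A2 lost it in 3, FOSB in 6, ZNF428, ATF3 and RPL13P12 in 7 each, H2AX in 9, KLF6 in 10, SLC39A3 in 13, and NXT1 and LINC01315 in 14 each, with the sign kept. RPL13P12 is a pseudogene of RPL13, so its reads are uncertain. ZNF428 averaged 39.1 CPM in the combination and 7.55 CPM in IN10018, and 13.02 CPM with crizotinib and 18.8 CPM in control. With 3 libraries in a group, single libraries were not screened for outliers.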

How the results depend on the processing

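The counts of genes higher and lower in the combination than in IN10018 stayed within 1.5 times their reported values in every setting run, at 3600 to 6635 higher and 3861 to 6066 lower. Without combination library 2, the same direction was called again for 3572 of the 5079 and 4064 of the 4706, and 0 genes were called in the other direction. The replicate block gave 5331 higher and 4905 lower. Same-numbered combination and IN10018 libraries correlated at -0.068, -0.084 and 0.019, so their numbers were not taken as pairs. Correlations with the crizotinib and control libraries were not computed. The count of genes with a differing crizotinib response was unstable, and the cause was not tested. The higher count was 175 with no filter on low counts, 46 with DESeq2, 2198 with limma-voom quality weights, 21 with the replicate block, 18 with the GC and length offset and 24 with block and offset, and 1 to 392 with 1 library left out. The lower count was 124, 18, 3025, 9 and 20 with no filter, DESeq2, quality weights, offset, and block and offset, 1 with limma-voom, and 1 to 413 with 1 library left out. The extremes of 392 and 413 came without crizotinib library 2; without combination library 2 the counts were 5 and 2. The offset, without and with the block, turned the log2 fold changes of BAD (-0.0094 and -0.0065), CLDN3 (-0.0489 and -0.0620), CLOCK (0.0491 and 0.0482), H2AX (-0.35 and -0.37), HSF1 (-0.0197 and -0.0200), HSPH1 (0.0168 and 0.0157), NOTUM (-0.17 and -0.17) and STK3 (0.0621 and 0.0611), and IER3 (-0.10 and -0.12), and the cause was not tested. The counts of rises and falls of at least 2-fold, 2044 and 1160, were 837 and 610 with the offset, and the rises were 1070 without combination library 2. Depth limits the genes with few reads, CCN2, KLF4 and ATF3 among those named.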
